A study of Mus musculus with 9 samples.

Results

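The cytosolic ribosome is built on 2 subunits. Each joins ribosomal RNA to a fixed set of proteins, named Rpl or Rplp for the large subunit and Rps or Rpsa for the small one. The genes described here are the protein-coding rows of the table whose symbols follow that pattern: 76 of the 54876 genes, 46 of the large and 30 of the small subunit. Their mRNAs are abundant in growing cells. Many begin with a stretch of pyrimidines, the 5' terminal oligopyrimidine or TOP motif, through which mTORC1, a kinase that senses amino acids including arginine, controls their translation. The values below are mRNA levels, and neither translation nor ribosomal protein was measured.

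RNA was sequenced from MIN6, a single line of mouse insulinoma cells kept as a model of the pancreatic beta cell and labelled with the strain C57BL/6. Cells spent 24 h in DEME medium, as the labels spell it, with 0.1 (low), 1 (standard) or 20 (high) times the standard arginine concentration, and each of the 3 groups had 3 libraries. The labels do not say whether the 3 libraries of a group came from separate cultures, so the spread behind each p-value is that between these samples and may be technical. Values are the authors' FPKM (fragments scaled by gene length and by a size per library, which was not the plain read total). Changes are differences in log2(FPKM + 1) with their standard error (SE), and a gene is called where its Benjamini-Hochberg adjusted p from limma over all 12300 tested genes was under 0.05.

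The libraries held 21550637 to 26300872 reads in genes. Of the beta cell markers, Ins2 averaged 50210 FPKM over the 9 libraries, while Slc2a2, the beta cell glucose transporter, was near 0 at 0.0103. Hormone genes of other islet cells were present: Ppy at 49.4 FPKM, Gcg at 23.0 and the delta cell gene Sst at 9758 with low, 5790 with standard and 5742 with high arginine. Beta cell genes also differed in low arginine. The group means of Pdx1 were 373 FPKM with low, 149.6 with standard and 161 with high arginine, those of Nkx6-1 189.6, 66.2 and 78.5, those of Mafa 310.3, 247 and 287, and those of Ins1 1065, 1542 and 1529. Those of Ins2, the more abundant insulin gene, were 52070 with low, 50610 with standard and 47940 with high arginine. The group means of Sst, Pdx1, Nkx6-1, Mafa and Ins2 were thus highest and that of Ins1 lowest with low arginine. The part of these genes in the results was not tested. Markers of stroma, endothelium, leukocytes, acinar and duct cells were at 0.324 FPKM or less. In bulk RNA, fewer cells of a kind and less RNA per cell cannot be told apart.

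To show what the genes that changed most look like at their start, 30 bases around the RefSeq start are given for 9 genes, 15 before it and 15 from it (GRCm38.p6, 5' to 3' on the gene's strand). Capitals mark the longest unbroken run of C and T. The first 6 fell in low arginine and the last 3 rose. The windows are chr14:18270972-18271001 (Rpl15, minus strand), chr9:120571502-120571531 (Rpl14, plus), chr7:45718056-45718085 (Rpl18, plus), chr7:3704026-3704055 (Rps9, plus), chr17:33824548-33824577 (Rps28, minus), chr7:99483695-99483724 (Rps3, minus), chr1:39367836-39367865 (Rpl31, plus), chr2:32961697-32961726 (Rpl12, plus) and chr15:5116598-5116627 (Rpl37, plus).
Rpl15: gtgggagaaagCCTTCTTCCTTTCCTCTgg
Rpl14: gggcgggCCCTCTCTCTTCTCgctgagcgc
Rpl18: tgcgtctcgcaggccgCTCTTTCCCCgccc
Rps9: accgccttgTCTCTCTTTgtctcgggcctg
Rps28: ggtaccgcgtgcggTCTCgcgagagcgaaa
Rps3: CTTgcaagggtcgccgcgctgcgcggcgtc
Rpl31: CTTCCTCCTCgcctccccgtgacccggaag
Rpl12: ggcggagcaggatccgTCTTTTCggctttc
Rpl37: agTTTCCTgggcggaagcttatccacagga

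The pyrimidine run was 17 letters long at Rpl15, 14 at Rpl14 and 10 at Rpl18, which fell, but also 10 at Rpl31, which rose. It was 3 letters long in the window of Rps3 and 4 in that of Rps28, which both fell. The runs also differed in position, counted with the start as 1. That of Rpl31 began at -15, the edge of the window, where it may be cut, and ended before the start. Those of Rpl15 and Rpl14 began at -4 and -8 and spanned the start, and that of Rpl18 began at 2. RefSeq starts can differ from the ends of the gene rows, and the starts used in these cells were not measured. The Rpl37 window ended at 5116627, before its gene row began at 5116645. The Rpl18 window began at 45718056, inside a row that began at 45715457. A run at another start would be missed. RefSeq starts were found for 56 of the 76 genes, 66 starts in all. A run of at least 8 letters of C or T on the gene's strand within 30 bases of the start was found at 51.5% of these starts, against 21.0% of the starts of tested protein-coding genes and 22.9% of all 32851 starts. Of the members, 32 had such a run at 1 start or more, with a median change of -0.20 in low arginine, and 24 had none, with a median of -0.15. Both groups of members held calls in both directions, 4 higher and 16 lower with the run and 3 higher and 12 lower without it. Over all tested genes 30.3% were called higher and 31.9% lower in low arginine.

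Other short motifs were searched on both strands from 250 bases before the start to 50 after it. CCGGAAG, the core letters bound by ETS family factors, was found at 36.4% of the members' starts, 18.2% of the starts of tested protein-coding genes and 8.86% of all starts. AAGATGGC, letters of the YY1 site, was found at 10.6%, 4.68% and 2.75% of them. TATAAA, the TATA box letters, was found at 9.09%, 6.22% and 13.6%. The 23 members with CCGGAAG had a median change of -0.08 in low arginine and the 33 without it -0.22. For AAGATGGC the medians were -0.26 in 5 members with it and -0.15 in 51 without. For TATAAA they were -0.33 in 6 members with it and -0.15 in 50 without. A match is a description of the letters and not a binding site.

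Deficient arginine was compared with standard arginine first. With the values as deposited, though not under quantile normalization, most of the ribosomal protein mRNAs that were called were lower in low arginine, and a few of the large subunit were higher. Of the 76 members, 41 were called lower and 8 higher, while quantile normalization gave 22 lower and 26 higher. TPM gave 32 lower and 14 higher, and removing the trend on GC content and length 35 lower and 16 higher. Calls took up 62.2% of all tested genes, 31.9% lower and 30.3% higher, so the share of members called was near the background and the split between directions was not. Groups did not overlap for 41 members lower and 10 higher, against 33.4% and 32% of all tested genes (65.4% together). The median change was -0.26, against 0.001 over all tested genes. In TPM the median of all genes itself moved to 0.12 and that of the members to -0.13. The size behind the FPKM was 1.05 to 1.08 times the reads in genes in the low arginine libraries. It was 0.962 to 1.02 times them in the other libraries, which lowers FPKM in low arginine relative to its reads. Median-of-ratios factors, which rescale each library by the median ratio of its genes, gave 41 members lower and 9 higher. The median change was then -0.25 for the members and 0.008 over all tested genes. The part of this scaling in the members' change was not tested further.

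The fall of the class has to be read beside other genes of like abundance, a comparison chosen after seeing the data. Of 860 other protein-coding genes with a mean of at least 50 FPKM, 56.3% were called lower and 21.5% higher, with a median change of -0.24. For the ribosomal protein genes the shares were 53.9% and 10.5%. Their changes were also narrower, with quartiles of -0.44 and -0.02 against -0.60 and 0.11. Reads in the 76 members made up 2.60 ± 0.0645% of reads in genes in low arginine (SD, n = 3), 2.86 ± 0.0817% in the standard group (SD, n = 3) and 2.81 ± 0.0217% with high arginine (SD, n = 3).

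**Figure D1:**
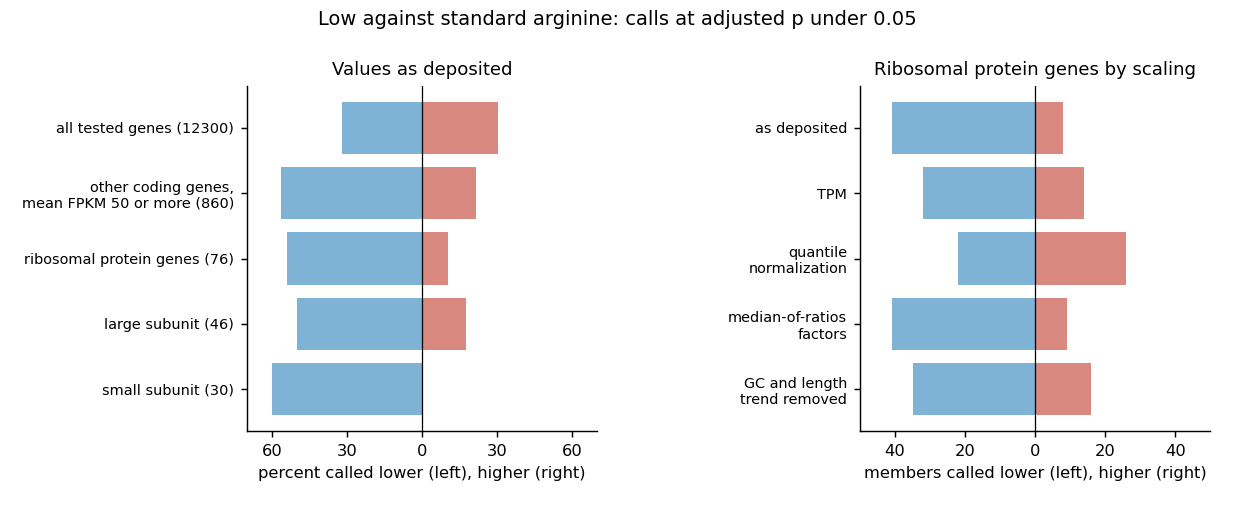
Left, the percent of each gene set called lower (blue, to the left) or higher (red, to the right) in low against standard arginine, with the number of genes in brackets. Right, the number of the 76 members called in each direction under 5 scalings: 41 were lower and 8 higher as deposited, while quantile normalization turned the balance to 22 and 26.

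With the values as deposited the called rises were in large subunit genes, but other scalings also called rises in the small subunit, and a difference between the subunits was not tested. Of the 46 large subunit genes 23 were called lower and 8 higher, with a median change of -0.20. Of the 30 small subunit genes 18 were called lower and 0 higher by limma, with a median of -0.27. With voom weights, median-of-ratios factors or the replicate number as a block, 1 small subunit gene was called higher, in TPM 3, with the GC and length trend removed 5 and under quantile normalization 8. Leaving out low arginine library 1 gave 2 and leaving out low arginine library 3 gave 1. At an unadjusted p under 0.05, 19 small subunit genes differed in either direction, against 65.7% of all tested genes.

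The median changes of the subunits were close. The median change of the large subunit lay 0.07 above that of the small subunit, and 0.03 to 0.10 above it over the alternatives. Median levels per library, on the log scale, pointed the other way. Their large minus small difference was -0.28 ± 0.054 in low arginine (SD, n = 3) and -0.24 ± 0.019 in the standard group (SD, n = 3). It was -0.21 ± 0.081 with high arginine (SD, n = 3). Libraries of the low and standard groups overlapped in this difference. Summed reads of the large subunit were 1.69 ± 0.0141 times those of the small subunit in low arginine (SD, n = 3), 1.64 ± 0.0118 times in the standard group (SD, n = 3) and 1.64 ± 0.0334 times with high arginine (SD, n = 3). No test was made of a score over members, since members are not replicates.

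**Figure D2:**
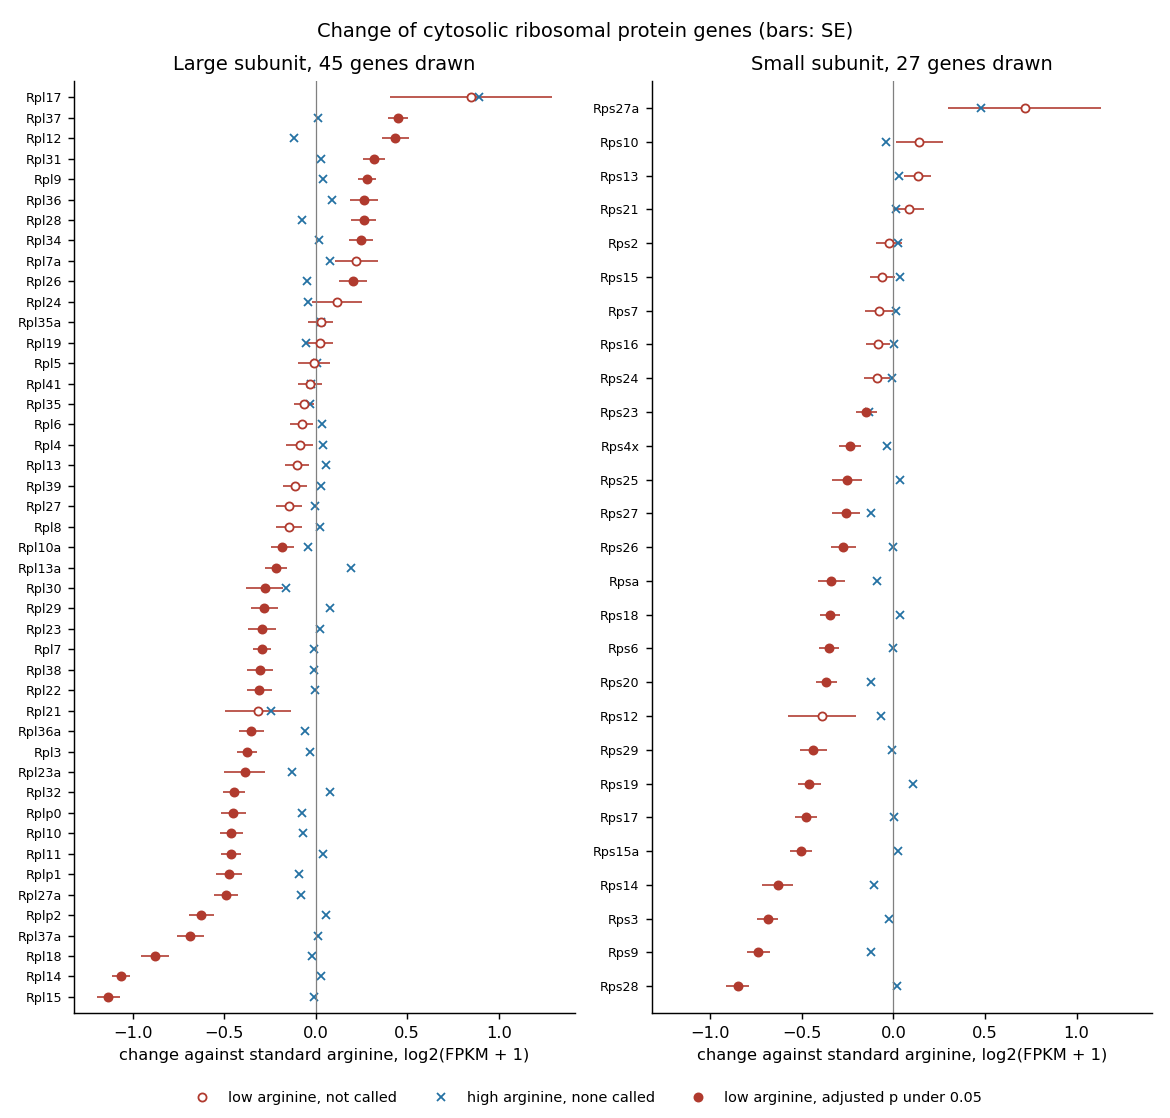
Change of 72 of the 76 members against standard arginine in log2(FPKM + 1), large subunit left and small subunit right, in order of the change in low arginine. Circles are low arginine with SE bars, filled where called, and crosses are high arginine. The filled circles reach from -1.13 (Rpl15) to 0.45 (Rpl37), while quantile normalization would shift the balance of calls towards rises.

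Among the largest falls of the large subunit were those of Rpl15, Rpl14 and Rpl18. Rpl15, a core protein that is mutated in some families with Diamond-Blackfan anaemia (ENSMUSG00000012405, chromosome 14, 18267823 to 18271391, GRCm38), was at 88.3, 91.7 and 95.0 FPKM in low arginine libraries 1 to 3, 209.6, 212 and 186 in standard libraries 1 to 3 and 201, 200.4 and 200.1 in high arginine libraries 1 to 3. Values of other genes follow the same order. The low arginine libraries stood apart below all others. Its level was 0.456 times that of standard arginine, a log2 change of -1.13 (SE 0.06, limma adjusted p = 1.41e-07).

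Rpl14 (chromosome 9, 120571444 to 120574654) was at 78.8, 80.3 and 82.6 FPKM in low, 171, 174 and 163 in standard and 169.7, 173 and 174 in high arginine, with no overlap of low arginine with the rest. It changed by -1.06 (SE 0.05, limma adjusted p = 5.59e-08). Rpl18, another gene of Diamond-Blackfan anaemia (chromosome 7, 45715457 to 45720836) was at 84.4, 85.2 and 78.2 FPKM in low, 158, 163 and 138 in standard and 162, 149 and 141 in high arginine. Standard library 3 was the lowest of its group there, and still lay above every low arginine library. Rpl18 changed by -0.88 (SE 0.08, limma adjusted p = 3.77e-06). Rpl15 and Rpl14 were among the 3 members called with a change of at least 2-fold.

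Libraries of a group differed over the class as a whole. Standard library 3 was the lowest of its group for 58 of the 76 members, and low arginine library 1 for 49. Without standard library 3, 44 members were called lower and 8 higher in low arginine, and without low arginine library 1, 38 and 10.

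Among the largest falls of the small subunit were those of Rps28, Rps9, Rps3 and Rps14. Rps28, which lies near the mRNA exit channel (chromosome 17, 33819027 to 33824562), was at 57.8, 63.2 and 61.9 FPKM in low, 106, 114 and 112 in standard and 113, 119 and 105 in high arginine. The low arginine libraries were the 3 lowest, and Rps28 changed by -0.85 (SE 0.06, limma adjusted p = 1.22e-06).

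Rps9, a protein of the body of the small subunit (chromosome 7, 3703993 to 3706897), was at 107, 103 and 107 FPKM in low, 182, 188 and 161 in standard and 168, 164 and 156 in high arginine. Its low arginine libraries did not overlap the others, with a change of -0.74 (SE 0.06, limma adjusted p = 4.08e-06). Rps3, which lines the mRNA entry channel (chromosome 7, 99477896 to 99483738), was at 118, 125 and 123 FPKM in low, 198, 209 and 185 in standard and 198, 193 and 190.3 in high arginine. It showed the same separation, with a change of -0.69 (SE 0.06, limma adjusted p = 3.18e-06). Rps14, a platform protein whose loss underlies the anaemia of the 5q- syndrome, was at 333, 331 and 328 FPKM in low, 545, 554 and 448 in standard and 513, 479 and 444 in high arginine. Its change was -0.63 (SE 0.08, limma adjusted p = 7.88e-05), and its standard libraries were more spread than its low arginine libraries.

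All 8 rises were in the large subunit. Rpl37, a small zinc-binding protein (chromosome 15, 5116645 to 5119140), was at 225, 230.3 and 227 FPKM in low, 167, 175 and 157 in standard and 163, 173 and 168 in high arginine. The low arginine libraries were the 3 highest, and its level was 1.37 times that of standard arginine, a change of 0.45 (SE 0.05, limma adjusted p = 4.06e-05).

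Rpl12, which forms the base of the stalk (chromosome 2, 32961559 to 32965345), was at 90.0, 85.3 and 88.5 FPKM in low, 63.1, 72.9 and 59.0 in standard and 59.2, 58.5 and 61.4 in high arginine. It was highest in the 3 low arginine libraries, with a change of 0.44 (SE 0.07, limma adjusted p = 0.000424). Rpl31, a protein of the rim of the exit tunnel (chromosome 1, 39367842 to 39371911), was at 333, 365 and 374 FPKM in low, 282, 299.7 and 276 in standard and 281, 300.3 and 293 in high arginine. Its change was 0.32 (SE 0.06, limma adjusted p = 0.000993), with no overlap of low arginine with the rest.

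The other 5 called rises, named after their values were seen, were smaller. They were Rpl9 at 0.28 (SE 0.05), Rpl36 at 0.26 (SE 0.08), Rpl28 at 0.26 (SE 0.07), Rpl34 at 0.25 (SE 0.07) and Rpl26, at the exit tunnel rim, at 0.20 (SE 0.08). Rpl26 and Rpl36 were no longer called when no filter on low values was used, and Rpl26 was also lost when low arginine library 2 or 3, standard library 2 or 3 or high arginine library 2 was left out. Over the 22 alternative fits, 6 of the 8 rises and 21 of the 41 falls were called in the same direction in every one. With quantile normalization left aside, 30 of the 41 falls were.

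**Figure D3:**
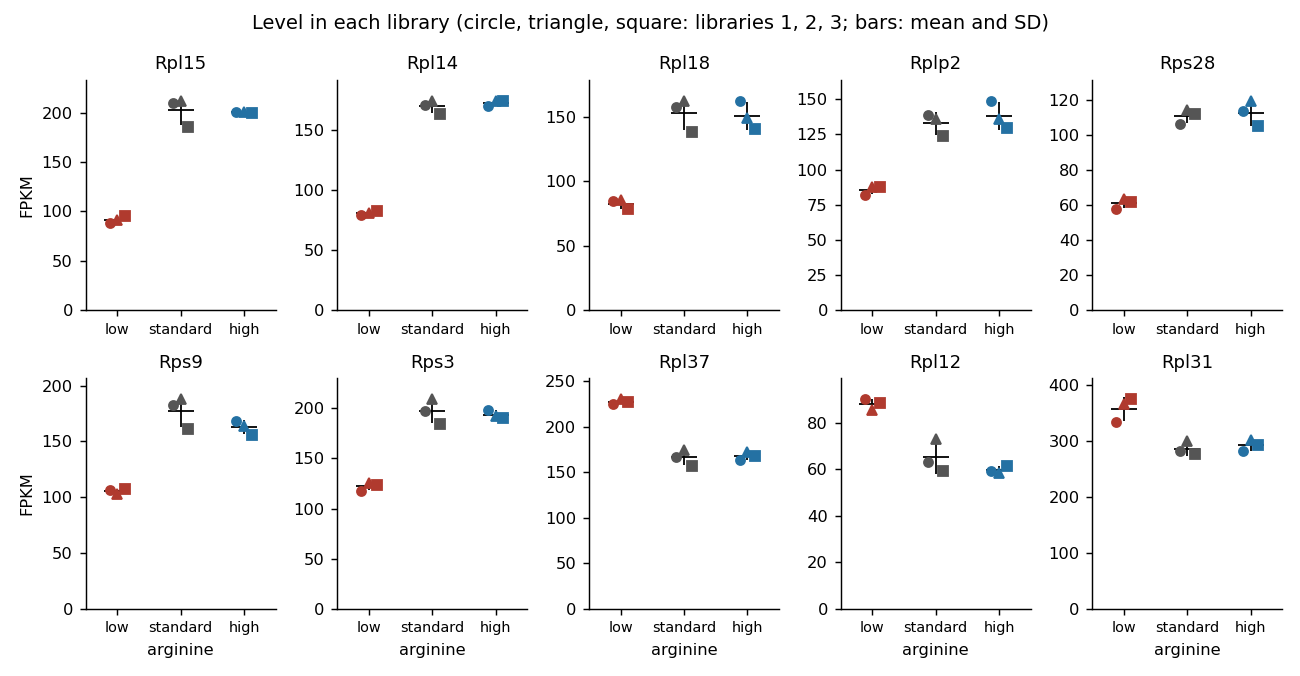
FPKM of 10 members in each library, by arginine group, with the axis starting at 0. Symbols are libraries 1 to 3 and bars the mean and SD. The low arginine libraries lie below all others for the 7 genes from Rpl15 to Rps3, and above all others for Rpl37, Rpl12 and Rpl31.

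Several of these genes overlap a coding gene on the other strand. There were 14 such members, among them Rpl15 (over Nkiras1, 4.34 FPKM), Rpl18 (over Sphk2, 10.1 FPKM), Rps28 (over Kank3, 1.21 FPKM), Rpl31 (over Tbc1d8, 8.94 FPKM), Rpl12 (over Lrsam1, 3.04 FPKM) and Rpl28 (over Ube2s, 59.3 FPKM). The library kit kept strand, but whether the counting used it is not known. Values of these members are thus uncertain, in size and direction, by how reads in the shared stretch were counted.

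The stalk of the large subunit draws translation factors to the ribosome, and its parts moved in both directions. Rplp0, its scaffold, was at 495, 468 and 457 FPKM in low, 685, 674 and 584 in standard and 627, 609 and 605 in high arginine, and changed by -0.45 (SE 0.07, limma adjusted p = 0.000199). Rplp1, 1 of the acidic proteins bound to it, was at 780.2, 774 and 769 FPKM in low, 1145, 1129 and 960.2 in standard and 1057, 996 and 973 in high arginine, and changed by -0.47 (SE 0.07, limma adjusted p = 0.000196). Its acidic partner Rplp2 was at 82.0, 87.3 and 87.5 FPKM in low, 139, 136 and 124 in standard and 149, 136 and 129 in high arginine, and changed by -0.63 (SE 0.07, limma adjusted p = 1.94e-05). All 3 P proteins were thus lowest in the low arginine libraries, while Rpl12, on which the stalk sits, was highest there. Under quantile normalization Rplp0 and Rplp1 were no longer called, which left 1 of the 4 stalk genes lower and 1 higher.

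Rpl5 and Rpl11 form a particle with 5S ribosomal RNA that also binds MDM2, the regulator of p53. Rpl11 was at 132, 145 and 139 FPKM in low, 188, 202 and 185 in standard and 197, 199 and 194 in high arginine, with no overlap, and changed by -0.46 (SE 0.06, limma adjusted p = 4.05e-05). Rpl5 was at 89.9, 105 and 104 FPKM in low, 91.3, 107 and 103 in standard and 91.5, 107 and 105 in high arginine. The Rpl5 groups overlapped fully, with a change of -0.01 (SE 0.09, limma adjusted p = 0.912), though quantile normalization called it higher at 0.22.

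Among 8 proteins around the exit tunnel, where the nascent chain leaves the ribosome, 2 were called higher (Rpl31 and Rpl26) and 2 lower, against 4 and 1 under quantile normalization and 3 and 2 in TPM. Of 4 proteins of the mRNA entry and decoding region, Rps3 and Rps23 were called lower and Rps2 and Rps15 were not, with changes of -0.03 (SE 0.07) and -0.06 (SE 0.07). Under quantile normalization 3 of these 4 were called higher. The call of Rps23, at -0.15 (SE 0.06, limma adjusted p = 0.0459), was lost under 12 alternatives and turned under quantile normalization. All 5 proteins listed at the mRNA exit and platform were called lower, among them Rps28 and Rps14, Rpsa at -0.34 (SE 0.07) and Rps26 at -0.27 (SE 0.07). Under quantile normalization 2 of the 5 were called lower and 0 higher. Of 19 genes whose mutation can cause Diamond-Blackfan anaemia, 10 were called lower and 2 higher, and under quantile normalization 7 and 6. Small nucleolar RNAs sit in the introns of many ribosomal protein genes. The 29 members with such a row inside them had 13 lower and 2 higher calls and a median of -0.22, and the 47 without one had 28 and 6 and a median of -0.26. Under quantile normalization these became 9 and 11, and 13 and 15. Over all tested genes 31.9% were called lower and 30.3% higher. For the Diamond-Blackfan anaemia genes the shares were 52.6% and 10.5%, near those of all 76 members at 53.9% and 10.5%.

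Excess arginine was compared with standard arginine next. In limma with the values as deposited, 0 of the 76 members were called in high arginine, against 0.309% of all tested genes (0.138% higher and 0.171% lower). At an unadjusted p under 0.05 there were 2 members, Rpl13a and Rps23, against 14.3% of all tested genes. With voom weights 0 were called, and with the GC and length trend removed 1 was called higher. The median change was -0.002, with quartiles of -0.05 and 0.03.

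The highest changes in high arginine were Rpl17 at 0.89 (SE 0.44), Rps27a at 0.48 (SE 0.42) and Rpl13a at 0.19 (SE 0.06). The lowest were Rpl21 at -0.24 (SE 0.18), Rpl30 at -0.16 (SE 0.10) and Rps23 at -0.13 (SE 0.06). With reads of their pseudogene rows added, as described below, Rpl17 was at -0.05 (SE 0.07) and Rpl21 at -0.08 (SE 0.09). Rps27a was then at 0.45 (SE 0.40) and Rpl30 at -0.12 (SE 0.09), while Rpl13a and Rps23 stayed the same. Rpl13a, which also serves in a complex that silences inflammatory mRNAs, was at 5.21, 5.44 and 5.83 FPKM in low, 6.52, 6.84 and 6.27 in standard and 8.08, 7.50 and 7.32 in high arginine. Its 3 groups did not overlap, and it stepped up from low to standard to high arginine. Its fall in low against standard arginine, -0.22 (SE 0.06, limma adjusted p = 0.01), was called, but not in TPM or with the GC and length trend removed, and in high against standard arginine its limma adjusted p was 0.205. Rps23, a protein of the decoding centre, was at 214, 235 and 227 FPKM in low, 251, 261 and 238 in standard and 227, 235 and 221 in high arginine. Both other groups lay below standard arginine, and the limma adjusted p in high against standard arginine was 0.327. Groups did not overlap for 4 members in this comparison, Rpl13a and Rps19 higher and Rps20 and Rps23 lower, against 18.5% of all tested genes (10.4% higher and 8.14% lower).

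High against low arginine tests whether both responses differ, because the standard libraries are common to the pair. Of the members, 36 were called higher and 7 lower in high arginine, against 32.3% and 29.2% of all tested genes (61.5% together), while quantile normalization gave 18 higher and 24 lower. Groups did not overlap for 42 members higher and 9 lower, against 68.4% of all tested genes. TPM gave 33 and 13, and the GC and length correction 36 and 13. These counts are from fits on group alone. With the replicate number as a block, which takes up the pairing read from the data, 43 were called higher and 8 lower. That fit called 4194 of the 12300 tested genes higher and 3866 lower. The large subunit had 20 higher and 7 lower calls with a median difference of 0.15, and the small subunit 16 and 0 with a median of 0.25. Rpl15 differed by 1.12 and Rpl14 by 1.09, while Rpl12 differed by -0.55 and Rpl37 by -0.44.

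The absolute levels of the members covered a wide range. In FPKM, which is per length, Rpl10, a late-assembling protein near the peptidyl transferase centre, had the highest mean over the 9 libraries at 969, followed by Rplp1 at 954 and Rpl41, the shortest ribosomal protein, at 924. Rpl10 was at 759, 808 and 794 FPKM in low, 1116, 1141 and 998 in standard and 1012, 1065 and 1026 in high arginine, and Rpl41 at 909.9, 919 and 916, 1002, 955 and 855, and 961, 892 and 907. The libraries of Rpl10, Rplp1 and Rpl41 overlapped, so their order is not fixed by these data. Rpl10 changed by -0.46 (SE 0.06) in low arginine and was called, and Rpl41 by -0.03 (SE 0.06) and was not. In the small subunit Rps15 led at 599 FPKM, then Rps14 at 442 and Rps2 at 429, and the libraries of Rps14 overlapped those of both others.

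At the low end, Rpl24 averaged 2.81 FPKM, Rpl13a 6.56 and Rpl21 13.4, and in the small subunit Rps10 averaged 1.24, Rps15a 32.7 and Rps20 45.1. Rps15a and Rps20 were called lower in low arginine, at -0.51 (SE 0.06) and -0.37 (SE 0.06). In standard arginine 47 of the 76 members lay within 2-fold of the members' median of 174 FPKM. The file's gene length merges all transcripts. With the length of the main GENCODE transcript instead, 58 of 76 lay within 2-fold of the median, though Rpl24 and Rps10 stayed low. The levels of Rps10 and Rpl21 carry the uncertainty of how reads were shared with the copies described next. Rows named as copies of Rpl24, Rpl13a and Rps20 held 0% of the joint reads, and those of Rps15a 1.70%. Only rows named as copies were counted, and why these other genes were low was not tested.

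Ribosomal protein genes have many processed pseudogenes, near-identical copies elsewhere in the genome, and reads can be assigned to either. The table held 384 rows named as pseudogenes of 65 members. For 16 members these rows took at least 5% of the joint reads, and for 3 over 50%: Rps10 at 97.5%, Rpl17 at 65.1% and Rpl21 at 59.6%. Rps10 itself averaged 1.24 FPKM while its pseudogene row Rps10-ps2 averaged 215 FPKM. Rps10, at -0.04 to 0.14 in both comparisons with standard arginine, was not called, nor was it with its pseudogene reads added. Values of these 16 members are uncertain for this reason. The rises of Rpl31, Rpl9 and Rpl34 were among them, and with the pseudogene reads added their changes were 0.33, 0.27 and 0.23, each still called.

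Rpl17, at the exit tunnel rim, was the clearest case. It was at 234, 217 and 69.9 FPKM in low, 69.3, 59.9 and 144 in standard and 122, 202 and 159 in high arginine. Its pseudogene row Rpl17-ps10 was at 144, 199 and 392 FPKM, 274, 335 and 178, and 175, 117 and 165 in the same libraries. Within each group the library lowest for Rpl17 was the highest for Rpl17-ps10. With all pseudogene reads of Rpl17 added on its own length, the values became 458, 489 and 491, 358, 403 and 372, and 333, 385 and 379 FPKM. The mean coefficient of variation within groups went from 42.6% to 5.89%. The change in low arginine, 0.85 (SE 0.44, limma adjusted p = 0.119) for the Rpl17 row alone, became 0.34 (SE 0.07, limma adjusted p = 0.00153). High against low arginine went from 0.04 (limma adjusted p = 0.94) to -0.39 (limma adjusted p = 0.000638).

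Rpl14 showed the other pattern. Its pseudogene rows held 23.9% of the joint reads, and Rpl14-ps1 was at 59.7, 61.9 and 69.2 FPKM in low, 132, 153 and 128 in standard and 135, 139.5 and 127 in high arginine. The row thus changed like Rpl14 itself, by -1.10 (SE 0.08, limma adjusted p = 1.12e-06), and with the reads added the change of Rpl14 was -1.07 (SE 0.05). Rps27a, which encodes a fusion of ubiquitin and a ribosomal protein, varied like Rpl17, at 116, 137 and 58.2 FPKM in low, 45.0, 47.3 and 95.7 in standard and 151, 56.8 and 65.5 in high arginine. Its named pseudogene rows held only 2.19% of the joint reads, and its change of 0.72 (SE 0.42, limma adjusted p = 0.158) was not called. Rps13, at 0.13 (SE 0.07), was not called either. Among the 60 members with under 5% of reads in pseudogene rows, 35 were called lower and 5 higher in low arginine. Quantile normalization gave 19 lower and 20 higher. Over all tested genes, as deposited, 31.9% were called lower and 30.3% higher. Replicate spread was otherwise small, with a median coefficient of variation of 5.19% over the members against 5.50% over tested genes with a mean of at least 50 FPKM.

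**Figure D4:**
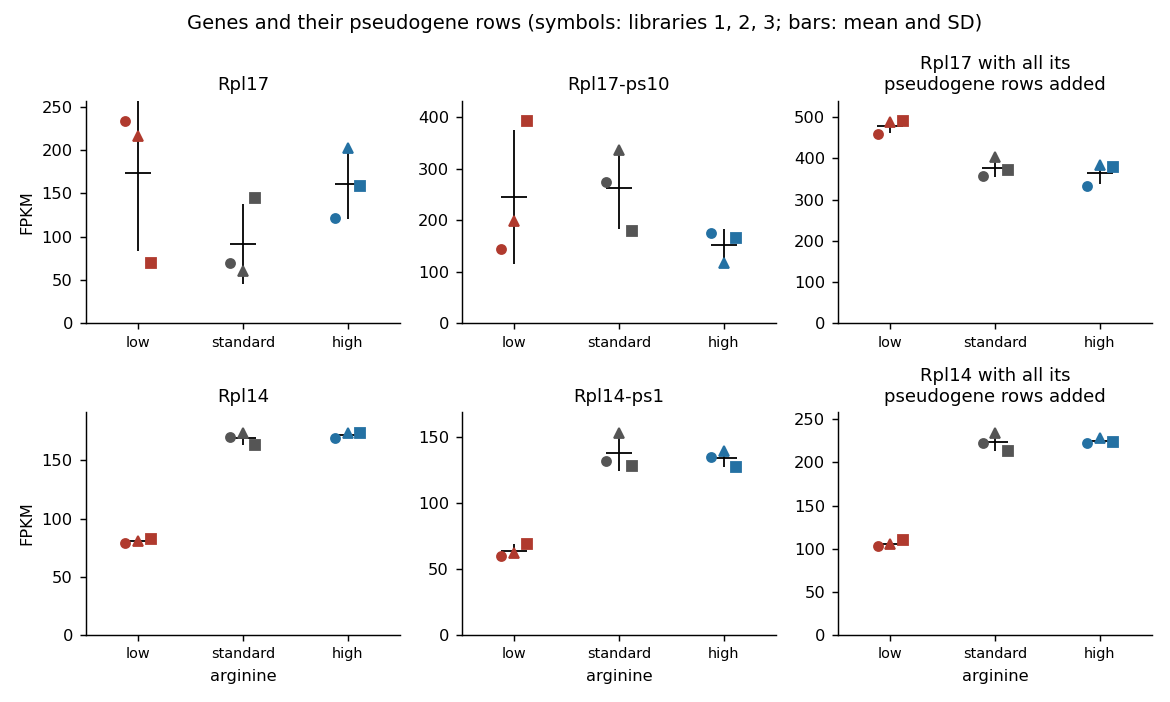
FPKM in each library of Rpl17 (top) and Rpl14 (bottom), of a pseudogene row of each (middle) and of the gene with all its pseudogene reads added (right), with axes starting at 0. Symbols are libraries 1 to 3 and bars the mean and SD. Rpl17 and Rpl17-ps10 are spread within groups and their sum is not, while Rpl14 and Rpl14-ps1 are both lowest in low arginine.

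Ribosomal proteins bind RNA and are rich in arginine, the amino acid that was varied. Arginine codons made up a median of 9.51% of the members' codons, against 5.67% over 10742 tested protein-coding genes, and 67 of the 76 members lay above that median. Rpl41 had the highest share at 40% and Rplp1 had 0. Across the 76 genes, which are not independent replicates, the share of arginine codons and the change in low arginine had a Pearson r of 0.05 and a Spearman rho of 0.12. In the 46 large subunit genes these were 0.12 and 0.27, and in the 30 small subunit genes -0.30 and -0.20. The mean FPKM gave a Pearson r of -0.02 with that change, and the GC content of the main transcript -0.06. The members' coding sequences were short, at a median of 454.5 bases against 1359, and their GC content was 51.9% against 50.8%.

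Ribosomal proteins that the symbol pattern misses were taken from a fixed list. Of 4 core proteins, 3 were called lower in low arginine and 0 higher. Over all tested genes 31.9% were called lower and 30.3% higher. Fau, a fusion with a ubiquitin-like protein, changed by -0.69 (SE 0.07) and Rack1, a signalling scaffold on the small subunit, by -0.49 (SE 0.07), while Rps3a1 was at -0.09 (SE 0.08) and reversed to 0.38 under quantile normalization. Of 5 tested paralogs 2 were called higher and 2 lower. Rpl7l1, which acts in ribosome assembly, was at 59.9 FPKM in low and 27.2 in standard arginine and changed by 1.11 (SE 0.06). Rpl36al changed by -1.14 (SE 0.10), Rps27l by -0.35 (SE 0.07) and Rps27rt, a retrocopy of Rps27, by 0.66 (SE 0.26, limma adjusted p = 0.0493). Rps27rt was at 92.3, 127 and 232 FPKM in low, 81.2, 109 and 76.8 in standard and 147, 130 and 145 in high arginine. Its low and standard libraries overlapped. In high against standard arginine it changed by 0.67 (SE 0.26, limma adjusted p = 0.29).

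Other mRNAs with a TOP motif encode much of the rest of the translation machinery. Of 18 tested, 13 were called lower and 1 higher in low arginine, with a median of -0.26. The shares were 72.2% and 5.56%, against 31.9% and 30.3% of all tested genes. Among the 860 coding genes outside the members with at least 50 FPKM, 56.3% were lower and 21.5% higher. Their median of -0.24 was close to that of the TOP genes. TPM gave 9 lower and 2 higher, and quantile normalization 10 lower and 3 higher. Eef2, the elongation factor that moves the ribosome along the mRNA, went from 853 to 363 FPKM, a change of -1.23 (SE 0.08). Hnrnpa1 changed by -0.75 (SE 0.08), Eef1b2 by -0.45 (SE 0.07) and Eef1g by -0.44 (SE 0.07). Npm1, a nucleolar chaperone, was the 1 called higher, at 0.18 (SE 0.06).

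Chaperones and importins escort new ribosomal proteins to the nucleus. Of 12 tested, 7 were called higher in low arginine and 0 lower, and 6 to 8 were higher under the other scalings. The share higher was 58.3%, against 30.3% of all tested genes. Tnpo1 changed by 0.95 (SE 0.10), Grwd1, the chaperone of Rpl3, by 0.45 (SE 0.09), Ipo5 by 0.40 (SE 0.06) and Ipo9 by 0.36 (SE 0.05). Rpl3 itself was called lower at -0.37 (SE 0.05).

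Of 12 regulators of TOP mRNAs, 4 were called higher and 2 lower, with 5 higher and 1 lower in TPM and 4 higher and 5 lower with the GC and length trend removed. Cnbp, a protein that binds their 5' ends, changed by 1.49 (SE 0.07), Eif4e, the cap-binding protein, by 0.74 (SE 0.07) and its inhibitor Eif4ebp1 by 0.47 (SE 0.09), while Eif4ebp2 changed by -0.36 (SE 0.07). Larp1, which binds the TOP motif when mTORC1 is off, was at -0.15 (SE 0.07) and not called. Of 9 genes that watch over ribosomes or free ribosomal proteins, 4 were called higher and 2 lower. The shares higher and lower were 33.3% and 16.7% of the regulators and 44.4% and 22.2% of these 9 genes. Over all tested genes they were 30.3% and 31.9%, or 62.2% together. Zfp598, the sensor of collided ribosomes, changed by 0.52 (SE 0.05), Trip4 by 0.50 (SE 0.09), Ube2o, a ligase for unassembled ribosomal proteins, by -0.51 (SE 0.07) and Rnf10, a ligase for small subunit proteins, by -0.48 (SE 0.07). In high against standard arginine limma called 0 genes in each of these lists, against 0.309% of all tested genes. An unadjusted p under 0.05 was found for 0 to 3 genes per list, against 14.3% of all tested genes.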

How the data were processed

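The authors deposited FPKM values for every gene and library beside a gene length, per the file headers. The submitters' processing notes name featureCounts 1.5.0-p3, HISAT2 2.0.5, CASAVA 1.8 and the build mm9. The strand setting was not given in the sources used here. GENCODE M21 holds 54409 of the gene IDs, and 98.3% of those (74 of the 76 members) have the same GRCm38 start and end in the table, so coordinates are given as GRCm38. FPKM times length gave whole reads in every value, to within 0.01 reads. These rebuilt reads served for depth, shares, pseudogene sums and voom weights, and no count model was fitted. The size behind each FPKM was 1.06, 1.05 and 1.08 times the reads in genes in low arginine libraries 1 to 3. It was 0.983, 0.962 and 1.02 times them in standard and 0.969, 0.969 and 0.994 times in high arginine libraries 1 to 3.

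Tested genes had 1 FPKM or more in 3 or more of the 9 libraries, which kept all 76 members, as log2(FPKM + 1), a scale that understates changes of low genes. limma 3.58.1 in R 4.3.3 fitted group alone over all 9 libraries with a variance trend (two-sided, Benjamini-Hochberg over 12300 genes, threshold 0.05), and was tested on simulated data. Promoter sequences are RefSeq's (GRCm38.p6). Replicate pairs all differed by more than sampling noise. The members and lists were chosen with earlier results of these data known. Named were, per subunit, the 4 highest and 4 lowest changes in low arginine and the 3 highest and 3 lowest levels, the 3 extremes in high arginine, the stalk and the 5S particle, and up to 4 called genes per list. Other genes were named after seeing their values. A few genes picked by this rule are left out here. Deviations from the group means of the 3 same-numbered low and high arginine pairs correlated at 0.243, 0.153 and 0.217, so in that comparison the numbers were read, from the data alone, as a pairing. Pairs with the standard group ran from -0.0355 to 0.196 and were not. Among them, standard and high libraries 1 and 3 correlated at 0.176 and 0.196, and libraries 2 at -0.0274. The pairing is therefore uncertain. Alternatives covered the pseudocount, filter, scaling, libraries in the fit, variance model, voom weights, replicate block, pseudogene reads and leaving out each library. Removal of the GC and length trend, and counting only members with under 5% of reads in pseudogene rows, were added after seeing the data.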

Additional observations from a re-analysis of the deposited data

How the results depend on the processing

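The balance of calls depended on scaling. Depth limits most the members of lowest level, Rps10 and Rpl24. Under quantile normalization, low against standard arginine gave 26 members higher and 22 lower (large subunit 18 and 14, small subunit 8 and 8), and high against low arginine 18 higher and 24 lower. In TPM 14 members were higher in low arginine (3 of the small subunit) and 13 lower in high against low arginine. With the trend on GC content and length removed, chosen after seeing the data, these were 16 (5 of the small subunit) and 13, with 1 higher in high against standard arginine. Counting only members with under 5% of reads in pseudogene rows, also chosen after seeing the data, left 5 higher in low arginine, all large subunit, and 4 lower in high against low arginine, fewer because fewer members were counted. Of the small subunit 1 was higher with median-of-ratios factors, 1 with voom weights and 1 with the replicate block, against 0. Leaving out each library in turn gave, in low arginine, 7 to 10 members higher and 38 to 44 lower (large subunit 7 to 8 and 21 to 25, small subunit 0 to 2 and 16 to 19), 0 in high against standard arginine, and 36 to 40 higher and 6 to 9 lower in high against low arginine. The large minus small difference of median changes was then 0.04 to 0.10 in low arginine. In high against low arginine it was -0.11 to -0.031, the latter without high arginine library 1. With the replicate block 9 members were higher and 44 lower in low arginine, 0 in high against standard, and 43 higher and 8 lower in high against low arginine, where it added calls and removed none from the members. Single genes that changed sign under quantile normalization in low arginine were Rpl10a (0.0053), Rpl27 (0.16), Rpl35 (0.13), Rpl4 (0.22), Rpl41 (0.35), Rpl5 (0.22), Rpl6 (0.14), Rpl8 (0.29), Rps15 (0.37), Rps16 (0.27), Rps2 (0.41), Rps23 (0.13), Rps4x (0.013), Rps3a1 (0.38) and Tpt1 (0.41). With the GC and length trend removed they were Rpl41 (0.15), Rps15 (0.17) and Rps6kb1 (-0.18). In high against low arginine they were, under quantile normalization, Rpl27 (-0.18), Rpl35 (-0.16), Rpl35a (-0.25), Rpl41 (-0.33), Rpl5 (-0.22), Rpl8 (-0.27), Rplp0 (-0.10), Rps15 (-0.36), Rps16 (-0.25), Rps2 (-0.38), Rps23 (-0.24), Rps4x (-0.019), Rps3a1 (-0.40) and Eef1a1 (-0.11), in TPM Rps23 (-0.11), and with pseudogene reads added Rpl17 (-0.39). The cause of these shifts was not tested.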
